A study of Mus musculus with 8 samples.

Results

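The comparison described here set the molar tooth germs of mouse embryos exposed to 5E1 against those exposed to 40-1a. 5E1 is a mouse IgG1 monoclonal antibody that binds the Shh protein, and 40-1a, its isotype control, binds the bacterial enzyme β-galactosidase. The comparison used 4 of the 8 Affymetrix arrays of the series, 2 for each antibody, chosen by their titles alone. All groups were ICR mice, an outbred stock. Pregnant females had received a single intraperitoneal injection at embryonic day 14, of 5E1 at 10 mg/kg body weight or 40-1a at 10 mg/kg. The remaining groups received cyclopamine at 10 mg/kg, a small molecule that inhibits the membrane protein Smo, or 1 ml of PBS, and each had 2 arrays. Germs were dissected from the lower jaws 24 hours later. The labels call the arrays of a group biological replicates but do not give the litters or the number of embryos behind each. The p-values therefore measure only the spread between these samples, and the antibody reached the embryos through the mother.

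Shh is a secreted ligand that the epithelium of the tooth germ makes, above all in the enamel knot, a signalling centre that directs the folding of the crown. Ligand that binds the receptor Ptch1 releases Smo from inhibition, and Smo then turns the Gli transcription factors into activators. Ptch1, Gli1 and Hhip are induced by the pathway itself in most tissues that receive the ligand, so their transcripts are widely read as a gauge of signalling. The antibody comparison asks what happens in the germ when the ligand is blocked while the injection of an antibody is held equal.

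Values were deposited as linear signal, 1 value for each probe set and array, and differences are 5E1 minus 40-1a on the log2(signal + 9) scale, which understates differences at low signal. A log2 difference of 1 is a 2-fold difference. Each gene is represented by its probe set with the highest mean, and 13008 genes passed a filter at a mean signal of 60.3. The 4 arrays all carried the defining markers of the labelled tissue. Krt14, a basal epithelial keratin, had signals of 11566 to 19729, and the dental mesenchyme genes Msx1, Pax9 and Barx1 ranged from 1426 to 2987, 910 to 2119 and 1391 to 3910. The arrays did not fall together by antibody. By correlation over the genes tested, 5E1 replicate 1 lay in a cluster with 40-1a replicate 1, and 5E1 replicate 2 in another with 40-1a replicate 2. The difference is therefore given below also between arrays of the same replicate number, which here are arrays of the same cluster. The labels do not pair the arrays, so these number-matched differences are given as values, and fits with the number as a block were run as alternatives.

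Across all genes the antibody difference was small and mostly not shared by the replicate numbers. With limma, 0 of 13008 genes (0.0%) passed an adjusted p of 0.05, and the smallest adjusted p was 0.969. This fit has no block, so variation shared by arrays of the same number counts in it as spread within groups. At an unadjusted p under 0.05 there were 102 lower genes (0.784%) and 57 higher genes (0.438%). The groups did not overlap for 1400 lower genes (10.8%) and 1126 higher genes (8.66%). The SD across genes was 0.385 for the difference between the replicate 1 arrays and 0.376 for that between the replicate 2 arrays. Pearson's r between these differences across genes was 0.011, and 52.1% of genes had the same sign in both, as a description, since genes are not independent replicates. A lower value in both numbers was found for 3624 genes (27.9%) and a higher value for 3148 (24.2%). At least 2-fold in both numbers were 21 lower genes (0.161%) and 7 higher genes (0.0538%). At least 4-fold in both numbers were 2 lower genes (0.0154%), Ptch1 and Gli1, and 0 higher genes. Of the 81 genes named with values below, 50 moved by over 1.5 times on the log2 scale when 1 of the 4 antibody arrays was left out, and for these the value closest to 0 is given.

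**Figure D1:**
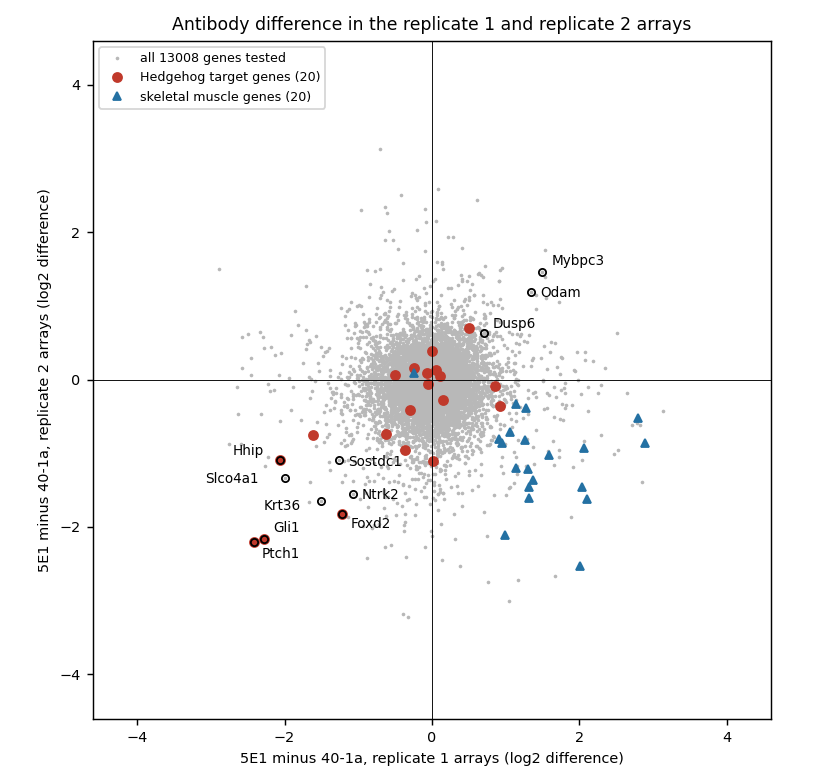
Each point is a gene, with the log2 difference 5E1 minus 40-1a between the replicate 1 arrays on the x axis and between the replicate 2 arrays on the y axis, for all 13008 genes tested. Ptch1 and Gli1 lie at the lower left corner of the cloud, beyond -2 on both axes, while 19 of the 20 skeletal muscle genes (triangles) lie right of 0 for replicate 1 and 19 lie below 0 for replicate 2.

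The genes that the Hedgehog pathway induces as its own feedback were lower after 5E1, and Ptch1 and Gli1 had the largest differences of the 13008 genes tested. Ptch1, the receptor of the ligand, had signals of 2122 and 1552 on the 5E1 arrays and 11322 and 7180 on the 40-1a arrays. On the cyclopamine and PBS arrays its signal was 5793 to 9683, so both 5E1 arrays lay below all 6 others. On the log2 scale it differed by -2.31 (SE 0.30, n = 2 in each group), at -2.41 between the replicate 1 arrays and -2.20 between the replicate 2 arrays. All 3 probe sets of Ptch1 were lower, by -2.49 to -1.93. Gli1, the Gli factor that is itself induced by the pathway, had signals of 240 and 348 after 5E1 and 1196 and 1586 after 40-1a. Its arrays did not overlap either, and the other 4 arrays lay between 1070 and 2157. The log2 difference was -2.22 (SE 0.40), with -2.28 and -2.16 between arrays of the same number. With each of the 4 antibody arrays left out in turn, Ptch1 ran from -2.64 to -1.98 and Gli1 from -2.48 to -1.96.

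Hhip encodes a membrane protein that binds the ligand and restrains its spread. Its signals were 35 and 31.5 after 5E1, under the filter level of 60.3, and 176 and 77.7 after 40-1a. The other 4 arrays read 90.7 to 236, so 5E1 was again below all others. The log2 difference was -1.58 (SE 0.46), with -2.07 and -1.10 by replicate number, and all 4 probe sets were lower. Without 40-1a replicate 1 it was -1.04. Since the array is made from whole germs, fewer cells that express a gene and less RNA in each cell cannot be told apart for these or any other genes. None of the 3 genes passed the adjusted threshold of the limma fit over all 8 arrays. With the array cluster as a block in that fit, limma called 3 genes, all lower, namely Ptch1 (adjusted p = 0.00107), Gli1 (adjusted p = 0.00165) and Sostdc1 (adjusted p = 0.0161). The clusters had been found on the same values. Over the alternatives run, the limma adjusted p spanned 0.00074 to 1 (Ptch1), 0.00165 to 1 (Gli1) and 0.0161 to 1 (Sostdc1).

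**Figure D2:**
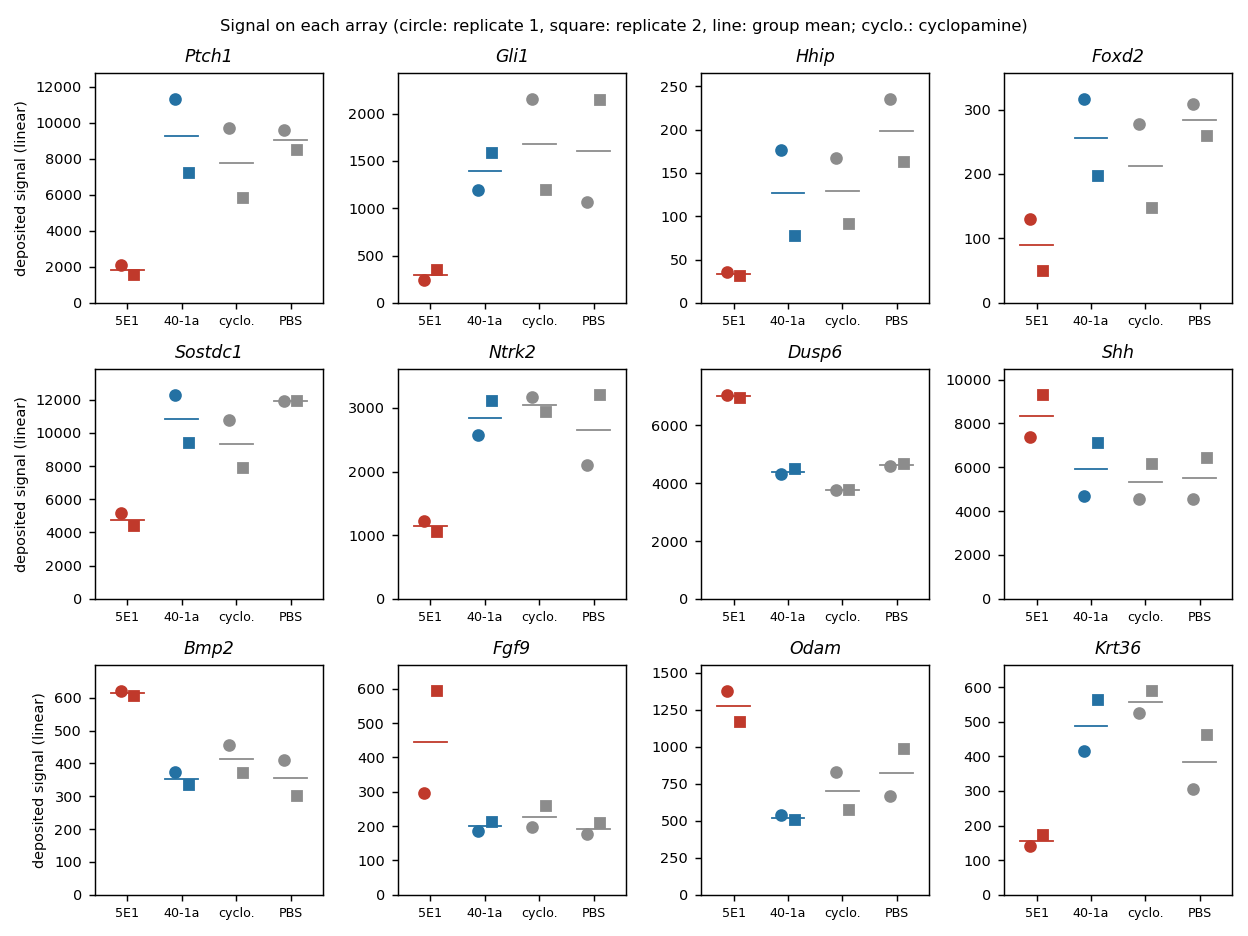
Deposited linear signal of 12 genes on each of the 8 arrays, with circles for replicate 1, squares for replicate 2 and a line at the group mean of 2 arrays. For Ptch1, Gli1, Hhip, Foxd2, Sostdc1, Ntrk2 and Krt36 both 5E1 arrays lie below every other array, and for Dusp6, Shh, Bmp2, Fgf9 and Odam both lie above.

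Promoter sequences are shown for the feedback genes and a forkhead target that were lower together and have an entry in the RefSeq promoter table. They cover the 250 bases before the annotated start on assembly GRCm38.p6, 5′ to 3′ on the strand of the gene. Ptch1 is at chr13:63565736-63565985, Hhip at chr8:80058009-80058258 and Foxd2 at chr4:114908899-114909148, all on the minus strand.
Ptch1: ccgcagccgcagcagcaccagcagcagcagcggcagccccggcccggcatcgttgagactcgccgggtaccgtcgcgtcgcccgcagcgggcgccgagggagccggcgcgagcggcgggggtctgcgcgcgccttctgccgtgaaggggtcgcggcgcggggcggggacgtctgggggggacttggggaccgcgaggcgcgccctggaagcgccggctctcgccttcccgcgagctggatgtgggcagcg
Hhip: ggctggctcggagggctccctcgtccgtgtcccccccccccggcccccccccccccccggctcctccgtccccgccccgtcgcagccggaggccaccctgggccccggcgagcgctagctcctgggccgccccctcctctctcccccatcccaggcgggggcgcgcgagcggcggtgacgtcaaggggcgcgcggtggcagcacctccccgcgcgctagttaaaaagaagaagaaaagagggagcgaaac
Foxd2: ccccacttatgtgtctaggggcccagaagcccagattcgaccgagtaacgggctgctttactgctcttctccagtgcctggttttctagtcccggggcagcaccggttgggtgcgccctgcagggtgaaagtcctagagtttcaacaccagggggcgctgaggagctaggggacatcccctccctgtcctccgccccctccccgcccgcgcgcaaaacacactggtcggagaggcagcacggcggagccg
The 3 windows are rich in G and C, at 78.4% for Ptch1, 76.0% for Hhip and 64.4% for Foxd2, against a median of 52.4% over 32851 promoters. Of all promoters, 18.4% were at or above the Foxd2 value.

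The motif GACCACCCA, the consensus that Gli factors bind, was searched on both strands of the windows from 250 bases before to 50 bases after the start. It was in 83 of the 32851 windows (0.253%). Of the 22 Hedgehog target genes listed, 12 had a window, and 0 of the 12 windows held it, nor did any of the 13 windows of the 15 genes with the largest lower values. The 7-base core CCACCCA, which overlaps the longer motif, was in 9.30% of all windows and in 2 of the 12 target windows, those of Mycn and Nkx2-3. Among the largest lower values it was in 3 of 13 windows, those of Krt36, Slco4a1 and Teddm3, and among the largest higher values in 2 of 11, those of 2610316D01Rik and Mybpc3. None of these 11 held the longer motif. These counts say only which letters lie in these windows.

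The list of Hedgehog target genes holds Ptch1, Gli1 and Hhip beside forkhead and other developmental genes, and was uneven. Of all 20 targets tested, 13 were lower and 7 higher, with a median of -0.14 against -0.01 for all genes. Without overlap, 5 targets (25%) were lower and 1 (5.00%) was higher, against 10.8% and 8.66% of all genes. The target median was -0.155 between the replicate 1 arrays and -0.316 between the replicate 2 arrays. It was -0.51 without 5E1 replicate 1, -0.34 without 40-1a replicate 2, -0.04 without 5E1 replicate 2 and -0.09 without 40-1a replicate 1. In limma, 4 targets were lower and 1 higher at an unadjusted p under 0.05, against 0.784% and 0.438% of all genes. No target passed the adjusted threshold. Ptch1, Gli1 and Hhip are among the 5 and among the 4 lower targets. Of the other 17 targets, 10 were lower and 7 higher, with a median of -0.057 (-0.051 and -0.085 by replicate number). Without overlap, 2 of the 17 (11.8%) were lower and 1 (5.88%) higher, shares near those of all genes. At an unadjusted p under 0.05 in limma, 1 of the 17 was lower, Foxd2, and 1 higher, Rasl11b.

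Foxd2, a forkhead transcription factor gene, had signals of 131 and 49.1 after 5E1 and 317 and 196 after 40-1a, a log2 difference of -1.52 (SE 0.49), with -1.22 and -1.82 by replicate number. Both 5E1 arrays lay below all others, and without 5E1 replicate 2 the difference was -0.89. Foxf2, a forkhead gene that Hedgehog signals induce in mesenchyme, read 133 and 97.4 after 5E1 and 428 and 169 after 40-1a. Its log2 difference was -1.18 (SE 0.62), and -0.54 without 40-1a replicate 1, and only 1 of its 2 probe sets was lower. The cyclopamine replicate 2 array, at 132, lay among the 5E1 values.

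Foxf1 overlapped between the antibodies, with 1378 and 427 after 5E1 and 2125 and 716 after 40-1a. Its log2 difference of -0.68 (SE 0.66) turned to 0.16 without 5E1 replicate 2 and to 0.10 without 40-1a replicate 1. Osr2, a zinc finger gene that patterns the tooth field, was at -0.66 (SE 0.48), and at -0.05 without 5E1 replicate 2. Foxd1 was at -0.55 (SE 0.39) and Mycn, a growth-promoting Myc family gene, at -0.36 (SE 0.32), again with overlap. Mycn was at -0.03 without 5E1 replicate 2, and Foxd1 at -0.25 without 40-1a replicate 2. Foxf1 and Osr2 are genes of mesenchyme, and the level of the dental mesenchyme list differed between the same arrays. The mean log2 level of its 22 genes was 11.25 and 9.98 on the 5E1 arrays and 11.10 and 10.48 on the 40-1a arrays. Its part in these differences was not tested.

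Among the target genes, Rasl11b had the only higher value without overlap. This small GTPase gene read 4095 and 3946 after 5E1 and 2893 and 2414 after 40-1a, with a log2 difference of 0.60 (SE 0.18). Both 5E1 arrays were above all 6 others, and the differences by replicate number were 0.50 and 0.71. Prdm1, a transcriptional repressor gene, was at 0.38 (SE 0.33) but turned to -0.13 without 5E1 replicate 1. The cell cycle kinase gene Cdk6 was at 0.19 (SE 0.18), at 0.01 without 5E1 replicate 2, and at -0.08 with the mean of its probe sets. The other 8 targets lay within 1 SE of 0, from -0.22 to 0.29.

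**Figure D3:**
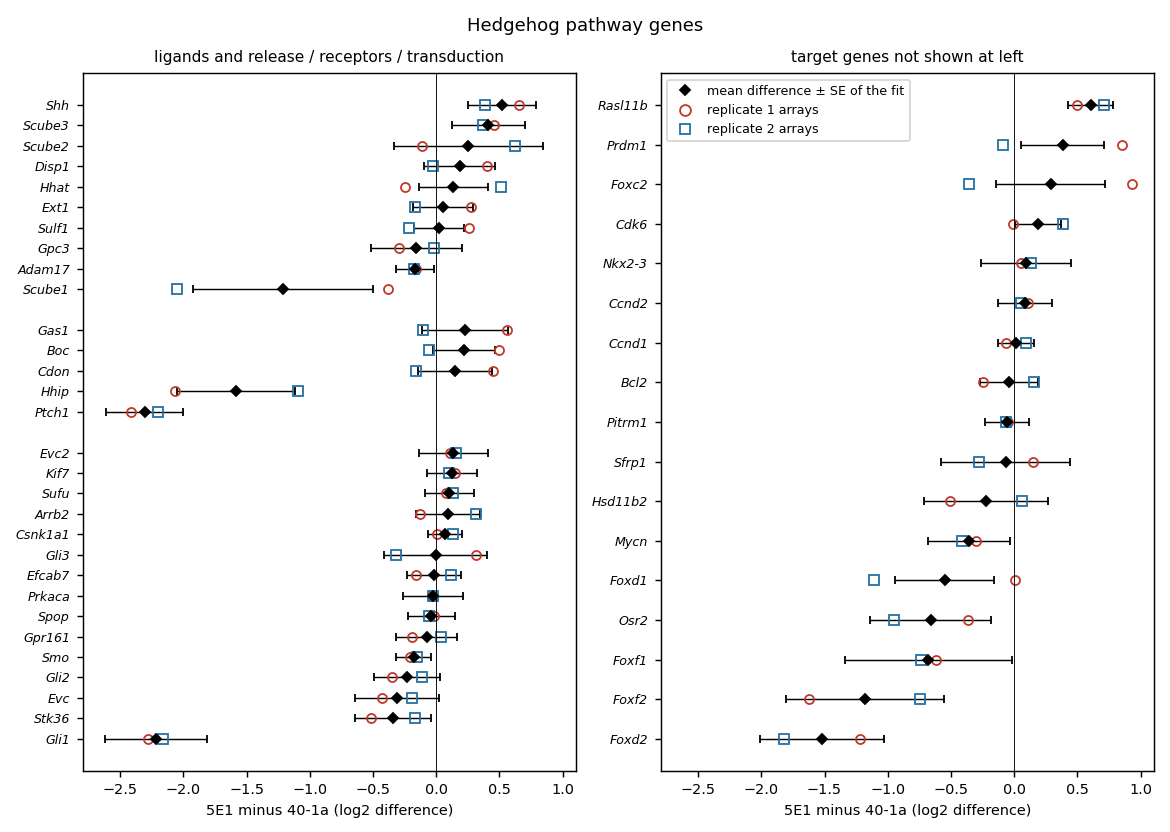
Log2 difference 5E1 minus 40-1a of the Hedgehog genes tested, with the mean difference and the SE of the limma fit (diamonds and bars) and the differences between the replicate 1 arrays (circles) and the replicate 2 arrays (squares). Ptch1, Gli1, Hhip, Foxd2, Scube1 and Foxf2 lie left of -1, while 29 of the 47 genes lie within 1 SE of 0.

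Of the 10 genes tested that encode the ligands or help release them, 7 were higher and 3 lower, with a median of 0.094. Shh itself read 7388 and 9306 after 5E1 and 4701 and 7117 after 40-1a, a log2 difference of 0.52 (SE 0.27). Both values after 5E1 were above all others, and both probe sets were higher. Without 40-1a replicate 1 the difference was 0.22. Scube3, a secreted protein of a family that helps release the ligand, was at 0.41 (SE 0.29; 0.25 without 40-1a replicate 1). Scube1, of the same family, was at -1.21 (SE 0.71), but at -0.42 without 5E1 replicate 2. Its signal on the cyclopamine replicate 2 array was lower than on either 5E1 array. Adam17, a metalloprotease gene, was at -0.17 (SE 0.15).

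Of the 5 receptor genes tested, Ptch1 and Hhip were lower and the 3 co-receptor genes Boc, Gas1 and Cdon lay between 0.15 and 0.23. The median of the 5 was thus 0.147 while their mean was -0.659. Smo read 2918 and 2848 after 5E1 and 3367 and 3162 after 40-1a. Its log2 difference was -0.18 (SE 0.14), but the sign depended on the probe set, at 0.13 with the mean of its probe sets and 0.08 without those that may match several transcripts. Of the 15 transduction genes, Gli1 alone passed an unadjusted p of 0.05 in limma, against 1.22% of all genes. Stk36, a kinase gene of the cascade, was at -0.34 (SE 0.30; -0.22 without 40-1a replicate 1), with 1 of its 2 probe sets lower. The other 12, among them Gli2, Gli3 and Sufu, were within 1 SE of 0, from -0.31 to 0.13. Over the 4 Hedgehog lists, with 47 different genes tested, 29 genes lay within 1 SE of 0.

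Outside the Hedgehog lists, Sostdc1 was lower by over 2-fold in both replicate numbers. It encodes a secreted protein that inhibits Wnt and BMP signals and is known for limiting tooth number and cusp formation. Its signals were 5146 and 4400 after 5E1 and 12303 and 9416 after 40-1a. All 4 other arrays were also higher than 5E1, from 7871 to 11943. The log2 difference was -1.18 (SE 0.20), with -1.26 and -1.10 by replicate number, and both probe sets were lower. It ran from -1.37 to -0.98 with each antibody array left out.

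The other secreted inhibitors of these pathways were divided. Of 10 BMP inhibitors tested, 7 were lower and 3 higher, with a median of -0.153. Fst, which binds activins and BMPs, was at 0.39 (SE 0.20; 0.12 without 5E1 replicate 2), and Twsg1, a BMP-binding protein, at -0.21 (SE 0.15). Of 15 Wnt inhibitors and Lrp receptors, 11 were lower and 4 higher, with a median of 0.104 by the replicate 1 arrays and -0.244 by the replicate 2 arrays. Lrp4, the membrane receptor that Sostdc1 binds, read 404 and 452 after 5E1 and 284 and 293 after 40-1a. With a log2 difference of 0.55 (SE 0.20), both 5E1 arrays were above all others, and the differences by number were 0.50 and 0.61. Kremen1, a receptor for Dkk proteins, was at 0.41 (SE 0.26), at 0.11 without 40-1a replicate 1, and not all of its probe sets agreed in sign.

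Most genes of the enamel knot list were higher on average, and 12 of the 19 were so in both replicate numbers. Of the 19 tested, 16 were higher and 3 lower, with a median of 0.392, against -0.01 for all genes. Between the replicate 1 arrays the median was 0.366 and between the replicate 2 arrays 0.429, with 15 of 19 higher in each. The groups did not overlap for 9 of the 19 genes (47.4%), all higher, against 8.66% of all genes. A higher value in both numbers was found for 24.2% of all genes. In limma 3 of the 19 were higher at an unadjusted p under 0.05, against 0.438% of all genes, and 0 passed the adjusted threshold.

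Bmp2, a growth factor of the knot, read 621 and 606 after 5E1 and 373 and 335 after 40-1a, a log2 difference of 0.78 (SE 0.23). The other 4 arrays lay between 302 and 455, and the differences by number were 0.72 and 0.84. Bmp7, of the same family, read 718 and 831 against 435 and 589 (log2 0.60, SE 0.22), and all 3 probe sets were higher. It was at 0.39 without 40-1a replicate 1. Fgf9, an epithelial growth factor that signals to mesenchyme, read 296 and 594 after 5E1 and 187 and 213 after 40-1a. Its log2 difference of 1.04 (SE 0.35) was 0.55 without 5E1 replicate 2 and 1.53 without 5E1 replicate 1. Fgf20, of the same subfamily, read 325 and 779 after 5E1 and 168 and 303 after 40-1a (log2 1.12, SE 0.50), and 0.51 without 5E1 replicate 2. For all 4 genes both 5E1 arrays lay above the other 6.

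Dkk4, a Wnt inhibitor made in the knot, read 244 and 427 after 5E1 and 224 and 188 after 40-1a. Its log2 difference was 0.64 (SE 0.32), with most of it between the replicate 2 arrays (1.15, against 0.12), and 0.24 without 5E1 replicate 2. Bmp4 went the other way, at -0.72 (SE 0.44), and overlapped between the groups. Its signals were 2371 and 883 after 5E1 and 2675 and 2132 after 40-1a, so that without 5E1 replicate 2 the difference was -0.01. Bmp4 is made by dental mesenchyme at this stage, and the 5E1 replicate 2 array was also the lowest of the 4 for Msx1, Pax9 and Barx1. The part of tissue composition was not tested. For the epithelial side, the mean log2 level of 24 dental epithelium genes was 10.69 and 11.46 on the 5E1 arrays. On the 40-1a arrays it was 10.80 and 11.44. The medians of the gene differences by number were -0.066 and 0.010.

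Transcripts that report FGF signalling were also higher on average. Of 13 FGF feedback genes, which FGF receptors induce through the MAP kinase cascade, 9 were higher and 4 lower, with a median of 0.323 (0.416 and 0.240 by number). The groups did not overlap for 5 of the 13 (38.5%), all higher, against 8.66% of all genes. In limma 2 were higher at an unadjusted p under 0.05, against 0.438% of all genes, and 0 passed the adjusted threshold. The mean log2 level of the list was 10.07 and 9.51 on the 5E1 arrays and 9.68 and 9.42 on the 40-1a arrays. PBS replicate 2 (9.89) and cyclopamine replicate 1 (9.77) lay above 5E1 replicate 2. PBS replicate 1 (9.43) and cyclopamine replicate 2 (9.45) lay below both 5E1 arrays. Dusp6, a phosphatase that inactivates ERK, varied little within a group, with 7063 and 6941 after 5E1 and 4327 and 4476 after 40-1a. The cyclopamine and PBS arrays read 3759 to 4660. Its log2 difference was 0.67 (SE 0.12), 0.71 and 0.63 by number, and 0.64 to 0.69 with each antibody array left out. Spry2, an inhibitor of receptor tyrosine kinases, read 1756 and 1712 after 5E1 and 1098 and 1202 after 40-1a (log2 0.59, SE 0.18). Both 5E1 arrays were above all others, but its second probe set was at -0.35. Egr1, an immediate early gene, was at 0.56 (SE 0.27) with overlap, and Spry1 at 0.32 (SE 0.17). Egr1 was at 0.27 without 40-1a replicate 2, and Spry1 at 0.15 without 5E1 replicate 1. The FGF ligands and receptors as a list were divided, with 8 of 15 higher and medians of 0.278 and -0.188 by number.

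Among targets of Wnt and β-catenin, 13 of 18 were higher and 5 lower, with a median of 0.232 (0.158 and 0.211 by number). The groups did not overlap for 4 higher genes (22.2%) and 1 lower gene (5.56%), against 8.66% and 10.8% of all genes. The mean log2 level of the list was 9.99 and 9.94 on the 5E1 arrays and 9.82 and 9.73 on the 40-1a arrays. PBS replicate 2, at 10.01, lay above both 5E1 arrays, while PBS replicate 1 (9.79) and the cyclopamine arrays (9.82 and 9.59) lay below. Apcdd1, a membrane inhibitor of Wnt signalling, read 6579 and 5637 after 5E1 and 3983 and 3100 after 40-1a, a log2 difference of 0.79 (SE 0.27). Of its 6 probe sets 4 were higher, and their mean gave 0.32. Myc, a transcription factor gene that drives growth, read 1444 and 1820 after 5E1 and 1123 and 1090 after 40-1a (log2 0.55, SE 0.19). For both genes the 5E1 arrays were above all others. Sp5, a zinc finger factor gene, was at 0.70 (SE 0.39) with overlap, and at 0.19 without 5E1 replicate 2.

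The list of BMP ligands, receptors and Id genes was divided. Of 17 tested, 9 were higher and 8 lower, with a median of 0.00. Id4, a target of BMP signals that blocks basic helix-loop-helix factors, read 2616 and 2610 after 5E1 and 3509 and 3361 after 40-1a. Its log2 difference was -0.39 (SE 0.16), and all 3 probe sets were lower. The cyclopamine replicate 1 array, at 2594, was as low. Of 16 Notch pathway genes, 10 were lower and 6 higher, with the target gene Heyl at -0.44 (SE 0.24; -0.25 without 5E1 replicate 2).

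Among receptors of nerve growth factors, Ntrk2 stood out by size. It encodes TrkB, the receptor of BDNF, and read 1220 and 1056 after 5E1 and 2578 and 3103 after 40-1a. The other 4 arrays lay between 2099 and 3208, all above 5E1. The log2 difference was -1.31 (SE 0.22), with -1.07 and -1.55 by number. All 8 probe sets were lower, but only 3 of them passed the filter. Of the other 9 genes of that list, 6 were higher and 3 lower. Among 25 axon guidance genes, 13 were higher and 12 lower, with a median of 0.018. Sema3d, a secreted semaphorin gene, read 1824 and 2131 after 5E1 and 1239 and 1569 after 40-1a (log2 0.50, SE 0.18; 0.33 without 40-1a replicate 1). The netrin genes Ntn1 and Ntn4 were at 0.49 (SE 0.31; 0.24 without 40-1a replicate 1) and -0.40 (SE 0.22; -0.26 without 5E1 replicate 1). The second probe set of Ntn4 was at 0.02. The nerve tubulin gene Tubb3 was at 0.66 (SE 0.33), while 7 of 12 nerve and Schwann cell genes were higher and 5 lower.

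Enamel and keratin genes differed in both directions. Odam, which encodes a protein that ameloblasts secrete, read 1379 and 1167 after 5E1 and 537 and 507 after 40-1a. The other 4 arrays read 573 to 982. The log2 difference was 1.27 (SE 0.26), with 1.35 and 1.19 by number. Amelx, the gene of the main enamel matrix protein, read 34.9 and 49.2 after 5E1, under the filter level, and 110 and 78.9 after 40-1a (log2 -1.02, SE 0.44). Of the 2 probe sets of Amelx, 1 was lower. Ambn, the ameloblastin gene, was at -1.07 (SE 0.78) with overlap, and at -0.06 without 5E1 replicate 2. Ibsp, a bone and cementum matrix gene, was at -0.45 (SE 0.28), and at -0.22 without 40-1a replicate 1. The list of enamel and dentin proteins had 5 genes tested, 4 of them lower, and most of its other members were below the filter.

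Krt36, a hard keratin gene, read 140 and 173 after 5E1 and 414 and 561 after 40-1a, with 307 to 589 on the other 4 arrays. It differed by -1.58 on the log2 scale (SE 0.28), with -1.50 and -1.65 by number. Krt73, a keratin gene of the hair root sheath, read 461 and 590 after 5E1 and 153 and 269 after 40-1a (log2 1.32, SE 0.35). Both had 1 probe set. The other 4 hard keratin genes tested lay between -0.11 and 0.12, so the list of 6 had a median of 0.081.

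The 15 largest lower and the 15 largest higher values, among genes with an unadjusted p under 0.05 in limma and no overlap, lay mostly at low signal. Without overlap and at least 2-fold apart were 59 lower genes (0.454%) and 28 higher genes (0.215%). Of these 87 genes, 70 were among the 3252 genes with the lowest mean level and 3 among the 3252 with the highest. The SD of the difference was 0.418 in the former and 0.151 in the latter. With an antibody array left out, 1 group holds 1 array and non-overlap is easier to reach, so counts from those fits cannot be set against the 87. Among the 30 named genes, 17 had an antibody array below the filter level, 11 of them lower and 6 higher genes. Both 5E1 arrays stood apart from all 6 others for 11 of the 15 lower and 8 of the 15 higher genes. These genes were picked for size and for no overlap with the isotype control arrays, so part of this was set by the choice. Among all genes, both lay below the other 6 arrays for 397 (3.05%) and above them for 232 (1.78%). These lie within the 1400 lower and 1126 higher genes without overlap between the antibodies. No excess is read from the counts among the named genes.

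Of the largest lower values not yet named, Slco4a1 had all 4 antibody arrays above the filter level. It encodes an organic anion transporter and read 107 and 187 after 5E1 and 454 and 483 after 40-1a, a log2 difference of -1.67 (SE 0.29). The other 4 arrays read 401 to 524, and its second probe set was at -0.98. Hgf, the gene of hepatocyte growth factor, was at -1.65 (SE 0.49), with -0.88 without 5E1 replicate 2, and another of its probe sets was at -0.03. Scnn1g, a subunit of the epithelial sodium channel, was at -1.73 (SE 0.57), and at -0.76 without 5E1 replicate 1. Sall3, a zinc finger gene, was at -1.78 (SE 0.73; -1.0 without 5E1 replicate 2) and below the filter level on 3 of the 4 arrays. Etv2, an ETS factor gene of the endothelial lineage, was at -1.82 (SE 0.55; -0.94 without 5E1 replicate 1). Pnldc1 was at -1.79 (SE 0.67; -0.63 without 5E1 replicate 2) and Plk5 at -1.72 (SE 0.47; -1.0 without 5E1 replicate 1). Best2 and Teddm3 were at -1.66 and -1.52, and Gm9828 at -1.64 (-0.78 without 5E1 replicate 1). In each of these last 6 genes at least 1 of the 5E1 arrays was below the filter level. For Etv2, Pnldc1, Best2 and Teddm3, the 5E1 values overlapped those of the cyclopamine and PBS arrays.

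Of the largest higher values, Mybpc3 and Esyt3 had 5E1 arrays above all 6 others and near-equal differences by number. Mybpc3, a myosin-binding protein gene of heart muscle, read 208 and 158 after 5E1 and 68 and 51.8 after 40-1a (log2 1.47, SE 0.30). Esyt3, a membrane tether gene, read 189 and 204 after 5E1 and 65.3 and 87 after 40-1a (log2 1.28, SE 0.32). Nanos1, an RNA-binding factor gene, was at 1.46 (SE 0.39), but its 40-1a values of 21.2 and 28.6 were the lowest of all arrays. Of the 2 probe sets of Nanos1, 1 was higher. Olfr701, an olfactory receptor gene, was at 1.64 (SE 0.65), but only 1 of its 2 probe sets was higher, and their mean gave 0.55. It read 144 and 81.8 after 5E1, against 150 and 85.5 on the PBS arrays and 44 and 17.9 after 40-1a. Scgn, a calcium-binding protein gene, was at 1.52 (SE 0.65; 0.38 without 40-1a replicate 2). H2-Ab1, an MHC class II gene, was at 1.11 (SE 0.41; 0.51 without 40-1a replicate 2), with 2 of its 3 probe sets higher. Slc6a15, an amino acid transporter gene, was at 1.04 (SE 0.34; 0.62 without the same array). Zcchc12 was at 1.18 (SE 0.44; 0.55 without 40-1a replicate 1). 1110032F04Rik was at 1.12 (SE 0.33), but only 1 of its 2 probe sets was higher, and their mean gave 0.35. E530011L22Rik was at 1.23 (SE 0.45; 0.68 without 40-1a replicate 2) and Fut4-ps1 at 1.06 (SE 0.46; 0.70 without 5E1 replicate 1). 2610316D01Rik was at 1.04 (SE 0.35), but at -0.24 by its other probe set. For Scgn, H2-Ab1, E530011L22Rik, Fut4-ps1 and 2610316D01Rik, the 5E1 values overlapped those of the cyclopamine and PBS arrays. Scgn, for example, read 158 and 113 after 5E1, 170 and 143 on the PBS arrays, and 101 and 13.6 after 40-1a.

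Cell cycle and apoptosis lists had medians between -0.018 and 0.073, and both stress lists were further from 0, at 0.204 and 0.142. Of 27 genes of mitosis and DNA replication, 13 were higher and 14 lower, with a median of -0.018. Kif11, a spindle motor gene, was at 0.40 (SE 0.16), though it was the only higher of its 3 probe sets. Of 14 D cyclin and Cdk inhibitor genes, 9 were higher, with a median of 0.060. Among 17 apoptosis genes 12 were higher (median 0.073), with the death receptor gene Fas at 0.57 (SE 0.32; 0.34 without 40-1a replicate 2). Of 20 immediate early and heat shock genes, 15 were higher, with a median of 0.204 (0.125 and 0.262 by number) and Atf3, a stress-induced factor gene, at 0.62 (SE 0.29; 0.30 without 5E1 replicate 2). Of 17 hypoxia and glycolysis genes, 15 were higher, with a median of 0.142 (0.057 and 0.185 by number), and 0 passed an unadjusted p of 0.05 in limma. Of 19 primary cilium genes, whose products build the organelle where Smo acts, 10 were lower and 9 higher. The intraflagellar transport gene Ift88 was at -0.31 (SE 0.20; -0.18 without 40-1a replicate 1). Of 17 cholesterol synthesis genes, 9 were lower, with a median of -0.020.

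Several lists of markers of neighbouring tissues had medians of opposite sign by replicate number. Of 20 skeletal muscle genes, 19 were higher after 5E1 between the replicate 1 arrays (median 1.309) and 19 were lower between the replicate 2 arrays (median -0.973). Their mean log2 level was 8.08 and 8.23 on the 5E1 arrays and 6.61 and 9.31 on the 40-1a arrays. Suprabasal and cornified oral epithelium genes had medians of 0.501 and -0.440, endothelial genes 0.271 and -0.412, macrophage and leukocyte genes 0.416 and -0.258, and extracellular matrix genes 0.222 and -0.316. Cartilage and bone genes (-0.066 and -0.153) and nerve and Schwann cell genes (0.023 and 0.146) had the same sign in both. Dental mesenchyme genes were at 0.127 and -0.351, with 21 of 22 lower between the replicate 2 arrays. The mesenchymal factor genes Barx1 (-0.86, SE 0.44; -0.27 without 5E1 replicate 2) and Lhx6 (-1.09, SE 0.76; -0.08 without 5E1 replicate 2) followed that array. Dlx5 was at -0.35 (SE 0.16; -0.20 without 5E1 replicate 2) and the epithelial gene Dlx3 at -0.64 (SE 0.38). Cd68, a macrophage gene, was at -0.49 (SE 0.27; -0.19 without 40-1a replicate 1) and Alpl, a bone phosphatase gene, at -0.38 (SE 0.22; -0.16 without 5E1 replicate 2). The part of these tissues in the gene differences was not tested.

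**Figure D4:**
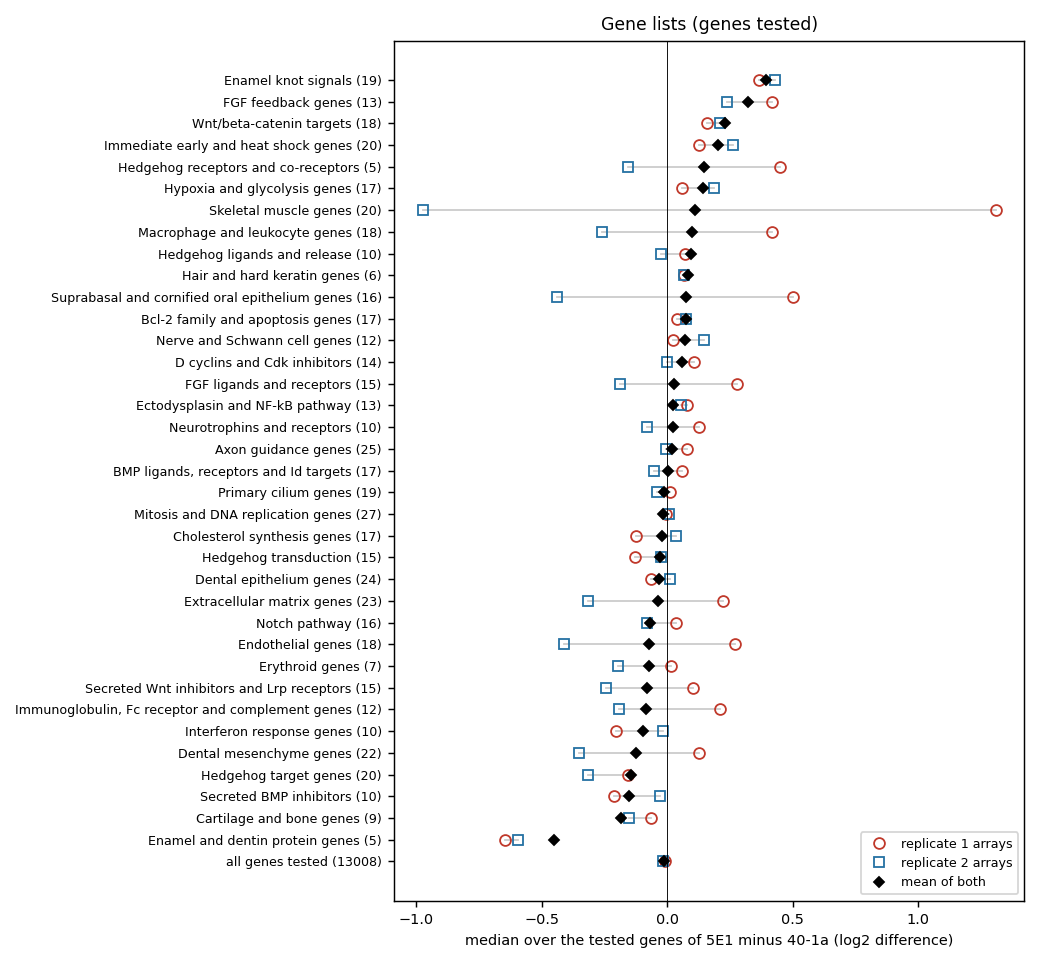
Median log2 difference 5E1 minus 40-1a over the tested genes of each list (number in brackets), for the mean of the 2 arrays in each group (diamonds), the replicate 1 arrays (circles) and the replicate 2 arrays (squares). Enamel knot and FGF feedback genes lie right of 0 in both numbers, while skeletal muscle genes lie at 1.309 and -0.973.

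Set against the effect of the other blocking agent, cyclopamine minus PBS, the antibody difference was tested by an interaction term, and the groups share no arrays. In limma 0 genes (0.0%) passed the adjusted threshold and 187 (1.44%) had an unadjusted p under 0.05. With the array cluster as a block, limma called 3 genes in this test. These limma calls were Ptch1 (adjusted p = 0.0172), Gli1 (adjusted p = 0.0294) and Fos (adjusted p = 0.0294), the last an immediate early gene named after its values were seen. In that fit Fos was at 1.13 for the antibody and -1.95 for cyclopamine, the larger part. Ptch1 and Gli1 were at 0.04 and -0.12 for cyclopamine there. The clusters had been found on the same values. In the fit without the block, Ptch1 was at -0.27 (SE 0.30) after cyclopamine, so that the antibody difference exceeded it by -2.04 (SE 0.43). Gli1 was at 0.08 (SE 0.40), an excess of -2.30 (SE 0.57). Sostdc1 was at -0.37 (SE 0.20), an excess of -0.80 (SE 0.28). Ntrk2 was at 0.23 (SE 0.22), an excess of -1.54 (SE 0.31), and Slco4a1 at 0.11 (SE 0.29), an excess of -1.78 (SE 0.41). Odam was at -0.23 (SE 0.26), an excess of 1.50 (SE 0.36). Hhip and Foxd2 were lower on average after both agents, at -0.63 (SE 0.46) and -0.46 (SE 0.49) after cyclopamine, with an excess of -0.95 (SE 0.66) and -1.06 (SE 0.69). Foxf1 (-1.16, SE 0.66) and Foxd1 (-0.98, SE 0.39) were further from 0 after cyclopamine, with an excess of 0.49 (SE 0.93) and 0.43 (SE 0.55). Same-numbered arrays of cyclopamine and PBS lay in different clusters, and the mean 18S ribosomal RNA signal was 2548 on cyclopamine replicate 1 against 52.9 to 448 on the others, so the part of these in the excess was not tested.

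**Figure D5:**
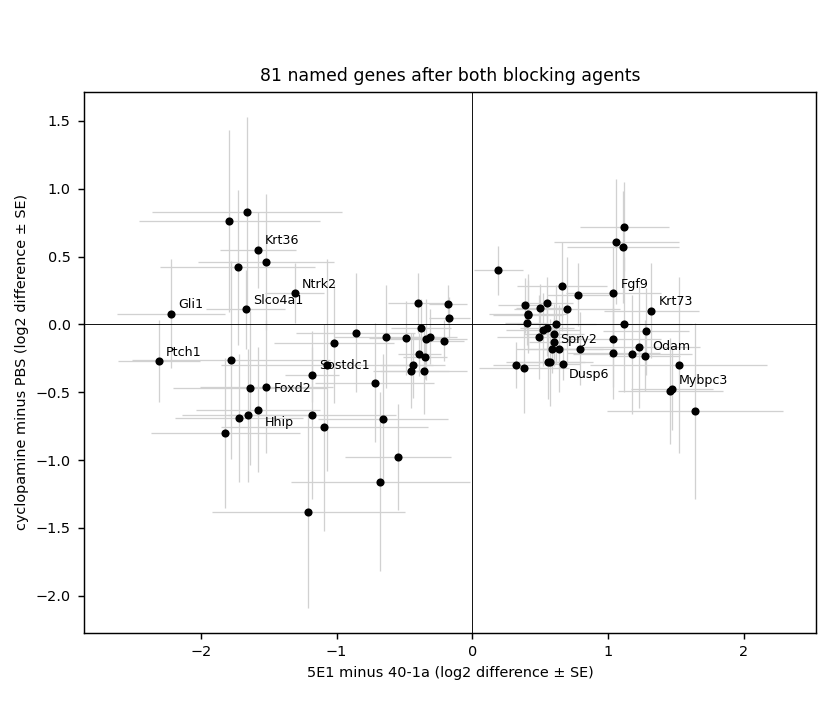
Log2 difference 5E1 minus 40-1a (x axis) and cyclopamine minus PBS (y axis) of the 81 genes named as results, with bars for the SE of the limma fit. The genes were chosen in part by their antibody difference, so their spread along the x axis is partly a matter of choice. Most points lie within 1 of 0 on the y axis. Many, such as Smo at -0.18 and Cdk6 at 0.19, lie within 1 of 0 on the x axis too.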

How the data were processed

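RNA from 8 samples of mandibular molar tooth germs, 5 µg of total RNA each per the labels' protocols, was measured on 1 array each. The authors deposited intensity on a linear scale, 1 value for each of 45101 probe sets, made with MAS5 per the submitters' processing notes. For the MAS5 version, its scaling target and any hybridisation batch, the sources used here state nothing. The mean deposited signal, trimmed by 2% at each end, was 500.0 on every array, so no scaling was added. Of the probe sets, 64 were controls. The platform annotation gave 1 gene for 34945, several for 932 and none for 9160, and of the single-gene probe sets 34741 matched the RefSeq gene table of GRCm38.p6.

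The log2(signal + 9) values were fitted with limma 3.58.1 in R 4.3.3 (lmFit, contrasts and a trended eBayes), as 4 group means over all 8 arrays with 4 residual degrees of freedom. The pseudocount is the 10th percentile of all values. Of 18193 genes, each represented by its probe set with the highest mean, 5185 below the 40th percentile were left out. P-values were adjusted by Benjamini-Hochberg over 13008 genes. The script was tested on simulated data whose noise was drawn independently for each gene and array, so without the variation that the real arrays share. The number of arrays limits the precision.

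The comparison, the gene lists and their members were chosen with earlier results of these data known. Named are the Hedgehog list members, of which those within 1 SE of 0 are given as counts and a range except Ptch1, Gli1, Shh and Smo, then the 15 largest differences in each direction with an unadjusted p under 0.05 and no overlap, and up to 4 members by p of each other list. Alternatives were quantile normalisation, pseudocounts of 0 and 32, no filter, a filter at the 60th percentile, other probe set rules, eBayes without a trend, the 4 antibody arrays alone, blocks for replicate number or array cluster, and each array left out.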

Additional observations from a re-analysis of the deposited data

Results flagged for a closer look

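For 11 genes named above, the 4 antibody arrays and the 4 cyclopamine and PBS arrays moved in opposite directions without overlap on either side. The difference between the antibody difference and the cyclopamine difference was tested by the interaction term of the limma fit, and 0 of these genes passed the adjusted threshold (adjusted p of 1 for each), as was the case for all genes tested. At an unadjusted p under 0.05 were 7 of the 11, against 1.44% of all genes, but the 11 were picked for opposite directions, so nothing is read from that share. On the log2 scale this difference was -2.55 for Pnldc1 (antibody -1.79, cyclopamine 0.76), -2.15 for Scnn1g (-1.73 and 0.42) and -2.13 for Krt36 (-1.58 and 0.55). It was 1.82 for Scgn (1.52 and -0.30), 1.95 for Mybpc3 (1.47 and -0.48), 1.95 for Nanos1 (1.46 and -0.49) and 1.40 for Zcchc12 (1.18 and -0.22). For the FGF feedback genes it was 0.96 for Dusp6 (0.67 and -0.29) and 0.62 for Spry1 (0.32 and -0.30). It was -0.21 for Adam17 (-0.17 and 0.05) and -0.33 for Smo (-0.18 and 0.15), and for Smo the sign of the antibody difference varied with the choice of probe sets. Groups of 2 arrays were too small for a check on single outlying samples.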

How the results depend on the processing

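No gene passed the limma threshold for the antibody comparison under quantile normalisation, either other pseudocount, either other filter, the other probe set rules, eBayes without a trend, the 4 antibody arrays alone or any array left out. Blocks gave calls, all lower. The replicate number as a block called 1 gene over all 8 arrays, Ptch1 (adjusted p = 0.00519), and 3 in the 4 antibody arrays alone, Ptch1 (adjusted p = 0.00074), Gli1 (0.00512) and Sostdc1 (0.0205). The array cluster block called 3. The labels do not pair the numbers. Deviations from the group means correlated at 0.591 across genes between same-numbered 5E1 and 40-1a arrays, against 0.002 between cyclopamine and PBS and 0.323 to 0.41 for the other 4 pairs of groups. For the antibody against the cyclopamine difference, the array cluster block called 3 genes where the fit without it called 0. By limma they were Ptch1 (-2.35, adjusted p = 0.0172), Gli1 (-2.10, 0.0294) and the immediate early gene Fos (3.08, 0.0294), named after its values were seen. Fos was at 1.13 for the antibody and -1.95 for cyclopamine in that fit. In no other setting run did that test call a gene.

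The 87 genes at least 2-fold different without overlap became 44 with a pseudocount of 32, 20 with the filter at the 60th percentile, 696 without a filter and 164 over every single-gene probe set. Leaving out 1 array gave 87 to 465, and a target median of -0.51 to -0.04. Of 1583 values of named genes under 21 settings, 1569 kept their sign and side of the threshold, 7 passed it and 7 changed sign. The changes of sign were Smo at 0.13 with the mean of probe sets and 0.08 without probe sets that may match several transcripts, Cdk6 at -0.08 and 2610316D01Rik at -0.24 in these 2 settings respectively, Prdm1 at -0.13 without 5E1 replicate 1 (range with 1 array left out -0.13 to 0.89), and Foxf1 at 0.16 and 0.10 without 5E1 replicate 2 or 40-1a replicate 1 (range -1.51 to 0.16). The cause was not tested.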
